A study of Mus musculus with 30 samples.

Results

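The phosphodiesterase genes described here are the 10 genes Pde1a, Pde1b, Pde1c, Pde2a, Pde4a, Pde4b, Pde4d, Pde7b, Pde8b and Pde10a, each found by its symbol among the 55401 gene IDs of the deposited counts. Polyadenylated RNA was sequenced from nucleus accumbens punches, tissue of the ventral striatum, taken from 30 male C57Bl/6J mice, with 1 library per animal. The mice had a tibial SNI (spared nerve injury, which models neuropathic pain by cutting part of the sciatic nerve) or a sham operation, and 4 weeks later received 2 intraperitoneal injections a day for 3 weeks. There were 6 SNI mice on tianeptine at 30 mg/kg, 4 SNI mice on desipramine at 15 mg/kg, 5 SNI mice on saline, 6 sham mice on tianeptine, 4 sham mice on desipramine and 5 sham mice on saline, which the design gives as the control. Tianeptine, an antidepressant, is an agonist of the mu-opioid receptor. Desipramine is a tricyclic that inhibits the noradrenaline transporter. The labels give neither the age of the mice nor the time from last injection to dissection.

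Cyclic nucleotide phosphodiesterases break down cAMP and cGMP. Dopamine, adenosine and opioid receptors raise or lower cAMP through adenylyl cyclase. In the medium spiny neuron, the main projection neuron of the striatum, PDE10A and PDE1B are known as abundant enzymes that act on both cAMP and cGMP. The PDE1 enzymes are switched on by calcium and calmodulin, and PDE2A is stimulated by cGMP. The PDE4, PDE7 and PDE8 enzymes prefer cAMP, and the PDE4 enzymes are the targets of rolipram.

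On build mm10 with the GENCODE M21 annotation, the calmodulin-dependent genes lie at chr2:79834453-80129458 (Pde1a, minus strand), chr15:103503034-103530052 (Pde1b, plus strand) and chr6:56069804-56569103 (Pde1c, minus strand). The other genes that act on both nucleotides lie at chr7:101421691-101512827 (Pde2a) and chr17:8525372-8986648 (Pde10a), both on the plus strand. The rolipram-sensitive genes are on the plus strand at chr9:21165714-21213248 (Pde4a), chr4:102087543-102607259 (Pde4b) and chr13:108449948-109953461 (Pde4d). Pde7b, at chr10:20398004-20725078, and Pde8b, at chr13:95024454-95250336, are on the minus strand. Most of each gene is intron: the span of Pde4d is 125.2 times its merged exon length and that of Pde1b, the most compact, 5 times.

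Stretches upstream of a RefSeq transcript start are shown for the 3 genes with the widest range between libraries, Pde10a, Pde7b and Pde1b, whose levels moved together, and for Pde4d, whose level went the other way. Each is the 250 bases before the start, on build GRCm38.p6 and read 5′ to 3′ on the gene's strand. Capitals mark the GC box (GGGCGG, or CCGCCC on the other strand).
Pde10a, chr17:8801495-8801744, plus strand: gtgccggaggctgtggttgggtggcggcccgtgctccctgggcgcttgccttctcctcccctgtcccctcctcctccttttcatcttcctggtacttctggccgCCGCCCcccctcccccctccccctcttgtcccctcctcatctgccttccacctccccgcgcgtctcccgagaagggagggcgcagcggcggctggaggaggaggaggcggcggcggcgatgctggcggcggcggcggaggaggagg
Pde7b, chr10:20548329-20548578, minus strand: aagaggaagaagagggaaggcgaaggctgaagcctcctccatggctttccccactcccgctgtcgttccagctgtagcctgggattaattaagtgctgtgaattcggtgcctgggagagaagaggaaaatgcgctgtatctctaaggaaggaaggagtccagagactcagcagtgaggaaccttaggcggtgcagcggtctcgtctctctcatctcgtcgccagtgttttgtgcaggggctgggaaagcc
Pde1b, chr15:103502784-103503033, plus strand: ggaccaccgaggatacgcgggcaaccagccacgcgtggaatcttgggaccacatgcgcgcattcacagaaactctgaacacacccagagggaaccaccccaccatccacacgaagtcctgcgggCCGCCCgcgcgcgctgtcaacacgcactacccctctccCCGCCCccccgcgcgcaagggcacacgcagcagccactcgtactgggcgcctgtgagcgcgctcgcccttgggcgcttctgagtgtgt
Pde4d, chr13:108653927-108654176, plus strand: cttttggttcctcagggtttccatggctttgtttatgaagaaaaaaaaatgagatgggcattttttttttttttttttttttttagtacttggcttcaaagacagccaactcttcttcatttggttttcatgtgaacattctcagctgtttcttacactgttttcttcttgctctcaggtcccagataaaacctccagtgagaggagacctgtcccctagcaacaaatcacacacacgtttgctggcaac
RefSeq windows of 300 bases (250 before and 50 after a start) were found for all 10 genes, 31 windows in all. The shown windows of Pde10a and Pde1b were 71.3% and 67% G or C, those of Pde7b and Pde4d 55.7% and 39.7%, and the median over all 32851 mouse windows was 52.7%. Windows at other starts of Pde10a and Pde1b were less rich, at 56.7% for Pde10a and 44% and 51% for Pde1b. The full cAMP response element TGACGTCA was in 0 of the 31 windows and in 1.79% of all windows. Its core TGACG, on either strand, was in 5 of the 31 windows, of 5 genes, and in 20.81% of all windows. The GC box was in 8 of the 31 windows, of 5 genes, and in 35.66% of all windows, and TATAAA was in 3 of the 31 and 13.62%. These matches describe letters and do not show binding.

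Pde1b and Pde10a were the most abundant of the 10 genes. Levels between genes are compared as counts per M counts (CPM) per kb of merged exon length. On this scale Pde1b averaged 167 ± 47.6 CPM per kb (SD, n = 30 libraries), and it was the highest of the 10 in 30 of 30 libraries. Pde10a averaged 82.0 ± 27.4 CPM per kb and was the second in 28 libraries, Pde2a and Pde1a each taking that place in 1. Pde2a followed with a mean of 56.6 ± 11.8 CPM per kb, Pde8b with 32.4 ± 5.51 and Pde1a with 27.7 ± 5.94. The cAMP-specific genes Pde4a, Pde4b and Pde7b were lower, at 19.1 ± 2.93, 18.1 ± 3.04 and 13.5 ± 4.02 CPM per kb, and Pde4d at 4.97 ± 0.622 and Pde1c at 3.72 ± 0.889 were the lowest. The middle of this order depends on the length used. Per kb of the longest transcript Pde4b averaged 44.4 CPM, above Pde1a at 39.1 and close to Pde8b at 45.0. Pde1b stood at the 99.46th percentile of all tested genes on this scale and Pde1c at the 49.84th. Because 64.32% of the exon bases of Pde2a are shared with the predicted gene Gm45837 on the same strand, its counts depend on how shared reads were assigned. Gm45837 held 470246 counts over the 30 libraries and Pde2a 467164. In Pde8b, 7.6% of exon bases overlap Gm48420 on the opposite strand, and Gm48420 held 8668 counts against 258202. The exon length of Pde1c is less certain, since its deposited ID is of another annotation version.

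**Figure D1:**
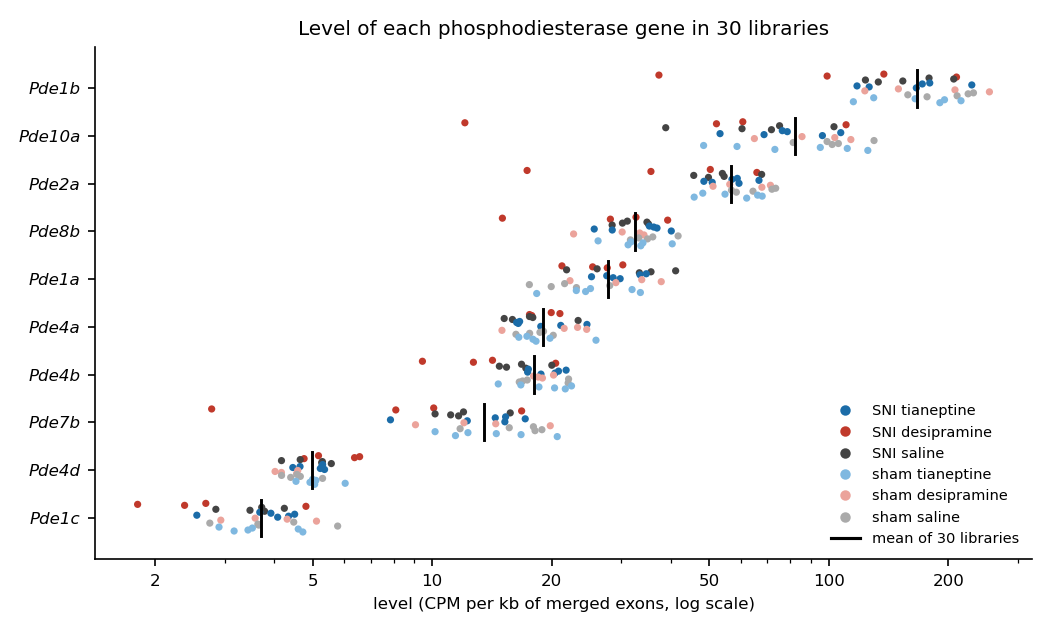
Level of each gene in each of 30 libraries, as CPM per kb of merged exons on a log axis; points are libraries coloured by group and black bars are means over 30 libraries. Pde1b, at a mean of 167 CPM per kb, and Pde10a, at 82.0, lie to the right, and SNI desipramine replicate 2 lies far to the left of the other libraries for both.

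The 10 genes made up most of the phosphodiesterase signal. Of the summed CPM per kb of 24 phosphodiesterase genes, they held 89.2% ± 3.16 (SD, n = 30), and Pde1b and Pde10a together held 51.3% ± 6.87. The share of the pair was 43.6% ± 13.01 in SNI desipramine (n = 4), 51.0% ± 4.33 in SNI tianeptine (n = 6), 50.2% ± 5.41 in SNI saline (n = 5), 52.3% ± 5.20 in sham tianeptine (n = 6), 53.4% ± 5.79 in sham desipramine (n = 4) and 56.1% ± 2.77 in sham saline (n = 5). In SNI desipramine replicate 2 it was 25.6%, the lowest of all libraries. The largest of the other 14 genes was Pde6d, which encodes a carrier of prenylated proteins, at 17.1 ± 1.46 CPM per kb.

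The libraries fell into 2 sets by the library numbers in their labels. Set 1 holds replicates 1 to 4 of every group, 24 libraries of 24.5 to 37.7 M counts, and set 2 holds replicates 5 and 6, 6 libraries of 98 to 120.7 M counts and none with desipramine. The medium spiny neuron markers Drd1, Drd2, Ppp1r1b and Penk were detected in every library, with medians of 190, 143, 609 and 798 CPM. A medium spiny neuron score was taken as the mean of log2 CPM over 20 markers, none of them a phosphodiesterase gene, each centred on its mean. In SNI desipramine replicates 1 to 4 the score was -0.233, -2.34, -0.781 and 0.427, against 0.496, 0.345, 0.064, 0.254 and 0.332 in the 5 sham saline libraries. The summed CPM of the 20 markers ran from 1985 to 11420 in SNI desipramine and from 8855 to 11990 in sham saline. A score of septal, hypothalamic and thalamic neurons, whose regions lie near the accumbens, was 0.761, 1.84, 1.68 and -0.33 in SNI desipramine replicates 1 to 4, and -0.779 to -0.148 in sham saline. Its summed CPM over 13 detected markers of 14 was 326 to 825 in SNI desipramine and 225 to 295 in sham saline. The septal score was -0.432 to 0.3 in SNI tianeptine and -0.786 to 0.813 in SNI saline. In sham mice it was -0.473 to 1.114 on tianeptine and -0.531 to -0.254 on desipramine. Other scores also differed between SNI desipramine and sham saline. The cortical excitatory neuron score, over 10 markers, was -2.10, -1.63, -0.864 and 0.317 in SNI desipramine and 0.37 to 1.255 in sham saline, and its summed CPM was 138 to 365 in SNI desipramine and 382 to 610.5 in sham saline. Low cortical scores were not particular to SNI desipramine. The range was -1.762 to 1.692 in SNI tianeptine and -2.03 to 2.178 in SNI saline. In sham mice it was -2.238 to 2.074 on tianeptine and -1.132 to 2.128 on desipramine. The cholinergic neuron score, over 4 markers, was 0.826, 1.14, 0.91 and 0.125 in SNI desipramine and -0.252 to 0.006 in sham saline, with summed CPM of 95.8 to 201 in SNI desipramine and 69.9 to 91.2 in sham saline. The cholinergic score was -0.753 to 0.684 in SNI tianeptine and -0.512 to 0.485 in SNI saline. In sham mice it was -0.579 to 0.479 on tianeptine and -1.109 to 0.09 on desipramine. The astrocyte score, over 8 markers, was 0.363, 0.774, 0.594 and -0.036 in SNI desipramine and overlapped its range of -0.421 to 0.291 in sham saline, and its summed CPM was 2650 to 3524 in SNI desipramine and 2868 to 3503 in sham saline. Slc17a7, a glutamate transporter gene of cortical excitatory neurons, ran from 1.555 to 961 CPM over the 30 libraries. The part of these cell types in the differences between groups was not tested. In punches of tissue, fewer cells of a type and less RNA per cell cannot be told apart.

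Pde10a, the striatal dual-specificity enzyme, spanned the widest range, from 155 to 1669 CPM. It had 779, 155, 669 and 1419 CPM in SNI desipramine, and 965, 1323, 498, 776 and 920 CPM in SNI saline. In SNI tianeptine the lowest, median and highest values were 683, 994 and 1376 CPM. In sham mice it had 621, 1080 and 1610 CPM (lowest, median and highest) on tianeptine, 1099, 1329, 834 and 1459 CPM on desipramine, and 1669, 1271, 1044, 1357 and 1309 CPM on saline. All 6 groups overlapped, sham saline holding the highest library and SNI desipramine the lowest. Group means ran from 756 ± 519 CPM in SNI desipramine (SD, n = 4) to 1330 ± 224 CPM in sham saline (n = 5), with a coefficient of variation of 68.7% within SNI desipramine.

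Pde1b, the calcium- and calmodulin-dependent enzyme of the same cells, had 742, 201, 534 and 1131 CPM in SNI desipramine and 965, 1113, 667, 828 and 719 CPM in SNI saline. In sham mice it had 807, 1121, 665 and 1369 CPM on desipramine and 1248, 1210, 853, 1135 and 953 CPM on saline. On tianeptine its median was 912 CPM in SNI and 959 CPM in sham. The order of the group means was that of Pde10a, and again no group stood clear of another. The ratio of Pde10a to Pde1b CPM lay between 0.748 and 1.57 in the 30 libraries, so the pair moved largely in step. It was 0.748 to 1.36 in library set 1 and 1.28 to 1.57 in set 2, which holds no desipramine library. Pde7b, a cAMP-specific enzyme, repeated the pattern with 126, 34.6, 101 and 209 CPM in SNI desipramine against 224, 195, 146, 235 and 226 CPM in sham saline. Pde2a had 309, 107, 219 and 405 CPM in SNI desipramine against 451, 442, 349, 396 and 359 CPM in sham saline. In each of these 4 genes SNI desipramine replicate 2 was the lowest library of all and replicate 4 lay within the range of sham saline.

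Pde8b, Pde4b and Pde1c showed the same low library with a narrower range. Pde8b, which encodes a cAMP-specific enzyme of high affinity, ran from 88.4 to 245 CPM over the 30 libraries. Pde4b, a rolipram-sensitive cAMP enzyme, ran from 99.8 to 237 CPM, and Pde1c, the third calmodulin-dependent gene, from 36.3 to 116 CPM. The lowest value of each was again that of SNI desipramine replicate 2.

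Pde1a, Pde4a and Pde4d behaved otherwise. Pde1a, the calmodulin-dependent relative of Pde1b, had 157, 131, 247, 214 and 200 CPM in SNI saline against 130, 106, 169, 120 and 139 CPM in sham saline, and 203, 134, 227 and 175 CPM in sham desipramine. Of the 6 group means, SNI saline was the highest at 190 ± 46.1 CPM (SD, n = 5) and sham saline the lowest at 133 ± 23.6 CPM (n = 5), with overlapping libraries. Pde4a, a rolipram-sensitive enzyme, varied least between groups, with means from 138 ± 24.4 CPM in SNI saline (n = 5) to 161 ± 32.4 CPM in sham desipramine (n = 4). Pde4d, another rolipram-sensitive enzyme, had 62.1, 78.8, 76.6 and 57.1 CPM in SNI desipramine, against 55.1, 48.3, 50.1 and 54.7 CPM in sham desipramine. These were the only 2 groups without overlap among the 150 pairs of groups over the 10 genes, and SNI desipramine was the higher. Between these 2 groups 9.96% of all tested genes did not overlap, 5.49% with SNI desipramine higher and 4.47% with it lower, so 1 of 10 genes is near that background.

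**Figure D2:**
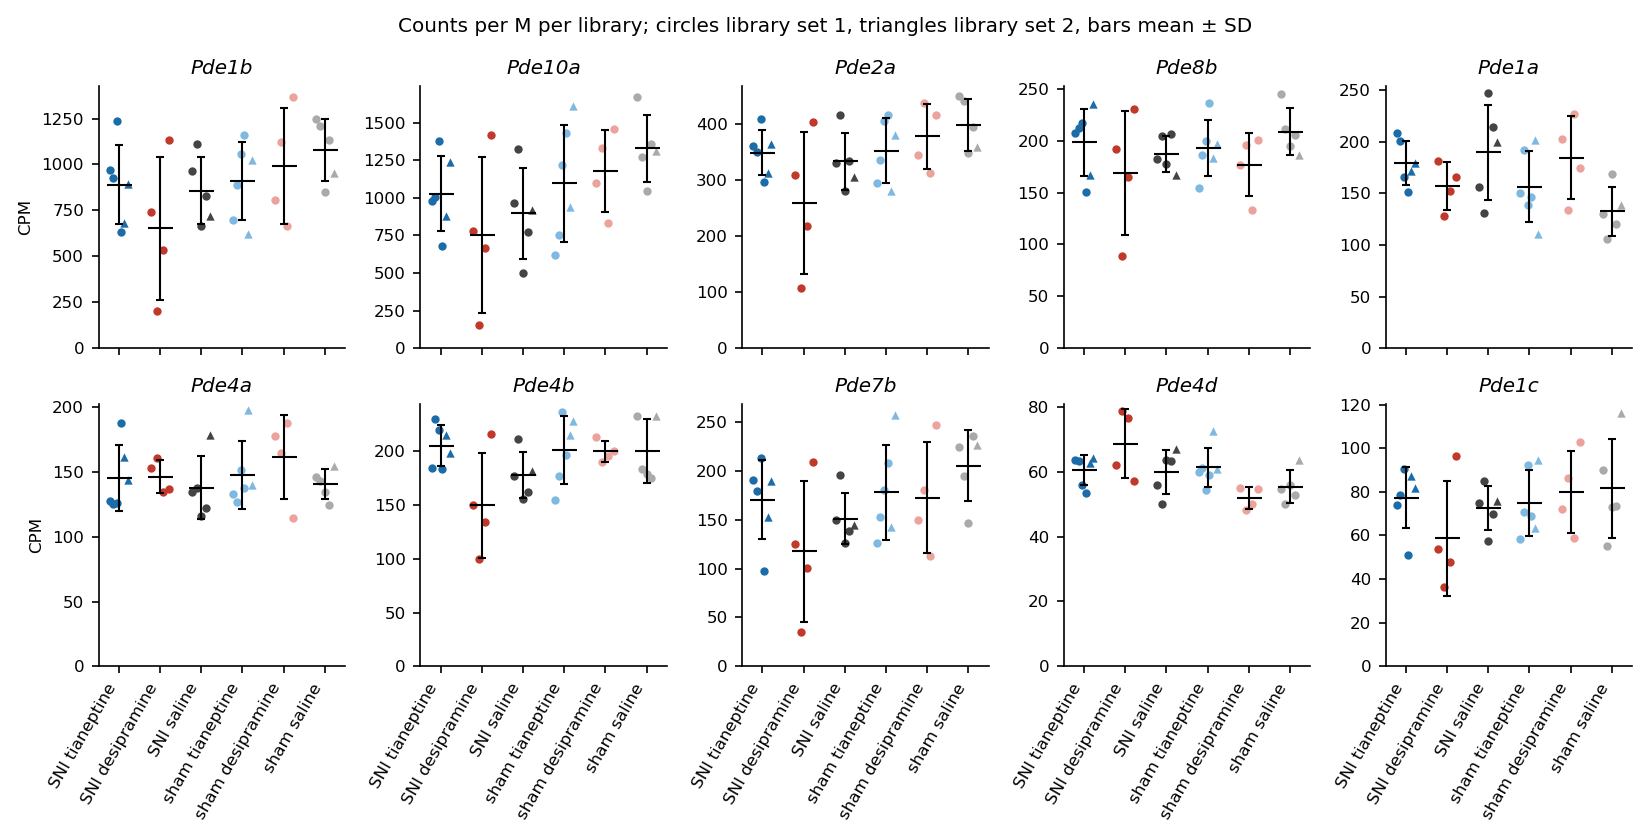
CPM of the 10 genes by group; each point is 1 library, circles are library set 1 and triangles set 2, and black bars are the mean ± SD of the group. SNI desipramine spreads widest for Pde10a, from 155 to 1419 CPM, and holds the 2 highest values of Pde4d, 78.8 and 76.6 CPM.

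Over the 30 libraries, 7 of the 10 genes followed the medium spiny neuron score with a Pearson's r of at least 0.8, computed on log2 CPM with the library set removed. The share of all tested genes that reach this r is not given here, so 7 of 10 cannot be set against a background. Pde1b had r = 0.990 (Spearman's rho 0.961), Pde2a 0.983 (rho 0.950), Pde7b 0.976 (rho 0.940) and Pde10a 0.957 (rho 0.927). Pde8b had r = 0.887 (rho 0.791), Pde1c 0.859 (rho 0.857) and Pde4b 0.846 (rho 0.721). The permutation p of r was 1e-05 for each of the 7, the smallest that 100000 resamples can give, or 7.7e-05 after Benjamini-Hochberg adjustment over 100 relations of 10 genes with 10 marker scores. The 7 were chosen by this r in the same libraries, so a small p follows from that choice and adds no support. Without SNI desipramine replicates 2 and 3, the libraries farthest from the median score, r was 0.975 for Pde1b, 0.945 for Pde2a, 0.949 for Pde7b and 0.916 for Pde10a, and 0.647 for Pde4b. Within library set 1 (24 libraries) the 7 values were 0.864 to 0.991, and within set 2 (6 libraries) r was 0.974 for Pde1b, 0.516 for Pde4b and 0.481 for Pde8b. With the group means also removed, r for Pde1b was 0.988 and for Pde10a 0.967.

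The slope of log2 CPM on the score was 1.13 for Pde10a, 0.96 for Pde7b, 0.94 for Pde1b and 0.69 for Pde2a, and 0.39 to 0.53 for Pde4b, Pde8b and Pde1c. A library that was lower by 1 on the log2 score was thus lower by about as much in Pde7b and Pde1b and by less in Pde4b. Among these 7 genes the 21 pairwise correlations ran from 0.681 to 0.982, with a median of 0.841. High values among them follow in part from the choice of the 7 by r with 1 score in the same libraries. Pde1b and Pde7b formed the closest pair.

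Pde4d ran the other way, with r = -0.701 (rho -0.550, permutation p = 3e-05, adjusted 0.00018) against the spiny neuron score and r = 0.830 (rho 0.763, adjusted p = 7.7e-05) with the septal, hypothalamic and thalamic score. Without SNI desipramine replicates 2 and 3 these values were -0.393 and 0.663, and within library set 2 the second was -0.110. Pde4a had r = -0.362 with the spiny neuron score (permutation p = 0.047, adjusted 0.13) and 0.641 (rho 0.620, adjusted p = 0.00067) with the score of cortical excitatory neurons. That value was 0.624 without its 2 farthest libraries, SNI tianeptine replicate 6 and sham tianeptine replicate 2. Pde1a had r = -0.112 (rho -0.388, adjusted p = 0.75) with the spiny neuron score, and -0.555 without SNI desipramine replicates 2 and 3, so its value rests on those libraries. The correlations share their libraries, and the part of cell composition in them was not tested.

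**Figure D3:**
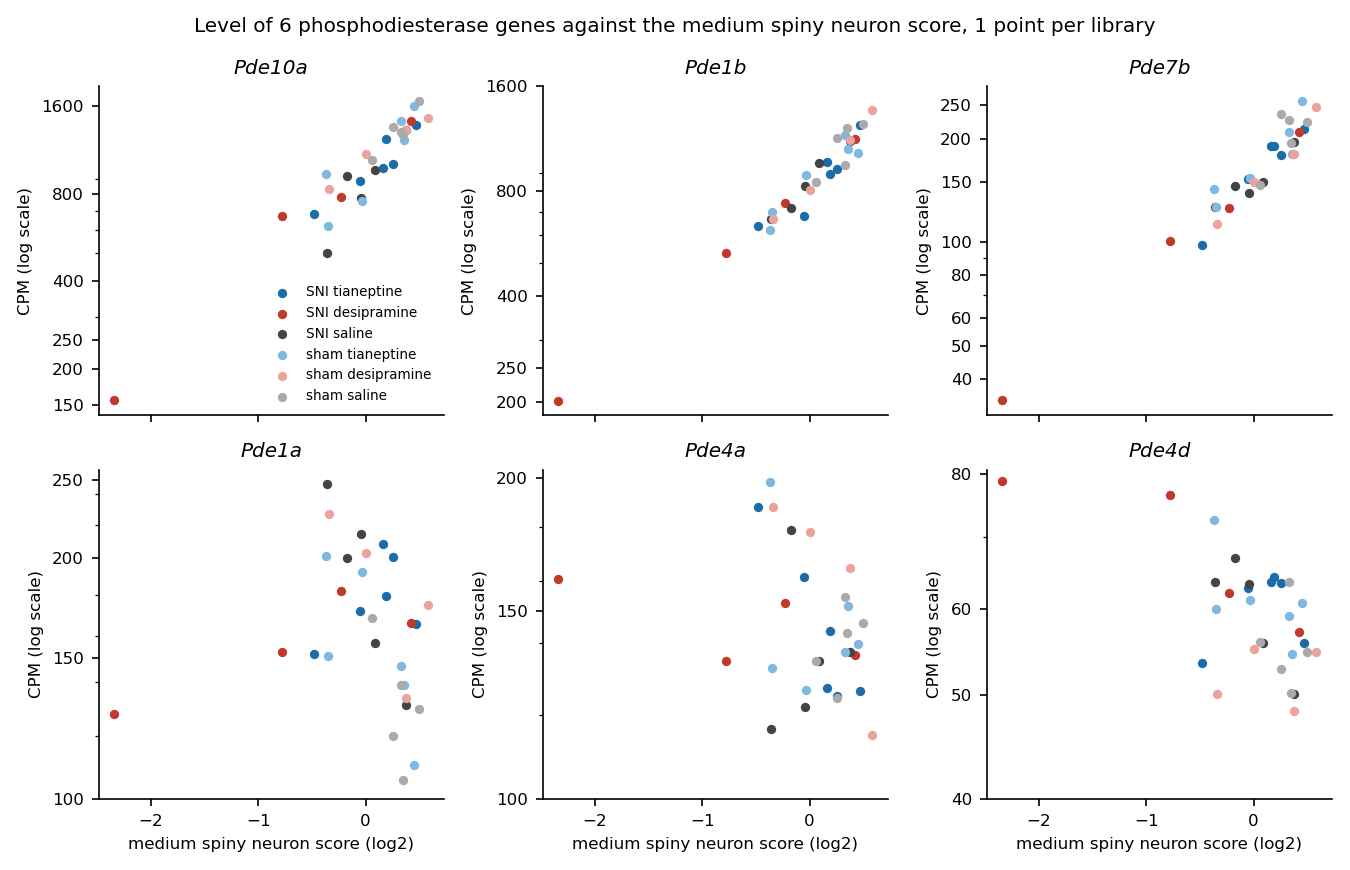
CPM of 6 genes on log axes against the medium spiny neuron score, in log2 units, with 1 point per library coloured by group and no library set removed. Pde10a, Pde1b and Pde7b climb with the score, SNI desipramine replicate 2 lying lowest at a score of -2.34, while Pde1a, Pde4a and Pde4d do not.

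**Figure D4:**
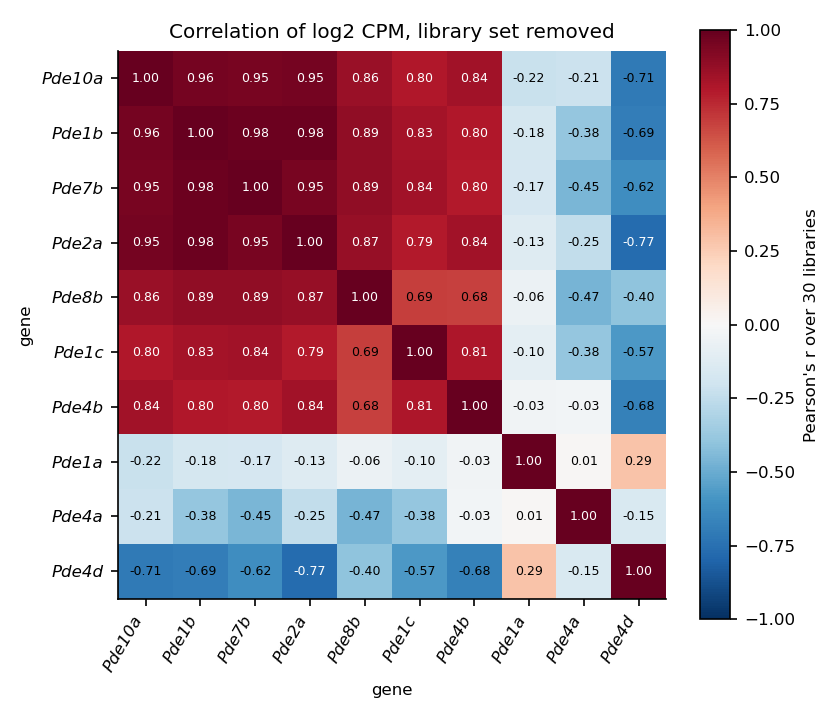
Pearson's r between the 10 genes over 30 libraries, on log2 CPM with the library set removed; red is positive and blue negative. The 7 genes from Pde10a to Pde4b, chosen by r of at least 0.8 with the medium spiny neuron score, form a block with r of 0.681 to 0.982. Pde4d is negative against all of them.

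The genes outside the family with the most similar pattern were sought by r over 30 libraries, library set removed, among 11225 expressed genes. For Pde1b they were Adcy5, the main striatal adenylyl cyclase (r = 0.993), the adenosine receptor gene Adora2a (0.992) and Rem2 (0.983). For Pde7b they were Adcy5 (0.982), Kcnab1 (0.980) and Adora2a (0.980), and for Pde10a Rgs9 (0.977), Zswim6 (0.973) and Strn (0.973). Adcy5, Adora2a and Rgs9 are among the 20 markers of the score. For Pde2a they were Ngef (0.984), Chst15 (0.982) and Hpca (0.981), for Pde8b Wnt2 (0.957), Ppp1r2 (0.955) and Sertad4 (0.953), for Pde1c Scmh1 (0.941), Ypel2 (0.938) and Oprk1 (0.934), and for Pde4b Caln1 (0.964), Gpr12 (0.948) and Fam49a (0.942). The genes outside the block had other partners. For Pde4d they were Sacm1l (0.913), Tgoln1 (0.906) and Klhdc10 (0.903), for Pde4a Slc6a17 (0.926), St8sia5 (0.920) and Vash1 (0.903), and for Pde1a Dpyd (0.761), the mu-opioid receptor gene Oprm1 (0.748) and Ptpra (0.746).

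SNI was compared with sham, with the treatments weighted equally, to ask what nerve injury did to these genes. None of the 10 passed edgeR's quasi-likelihood test at an adjusted p of 0.05, where 1.84% of 23736 genes passed, and 4 had an unadjusted p under 0.05, as did 22.6% of all genes. The values for the block of 7 all lay below 0. Pde10a differed by -0.43 ± 0.21 (log2 fold change ± SE, adjusted p = 0.211), Pde7b by -0.35 ± 0.17 (0.232), Pde1b by -0.32 ± 0.17 (0.248), Pde2a by -0.27 ± 0.12 (0.175) and Pde4b by -0.18 ± 0.08 (0.184). The median over the 10 genes was -0.18, and over all tested genes 0.00. Pde4d had the smallest p, at 0.17 ± 0.05 higher in SNI (95% interval 0.07 to 0.26, adjusted p = 0.0551). On tianeptine its mean was not higher in SNI, at 60.6 ± 4.67 CPM against 61.3 ± 5.98 CPM in sham (SD, n = 6 each). The means in SNI and sham were 68.7 ± 10.7 and 52.0 ± 3.38 CPM on desipramine (n = 4 each). On saline they were 59.9 ± 6.82 and 55.45 ± 5.05 CPM (n = 5 each). DESeq2 gave Pde4d 0.16 ± 0.05 with an adjusted p of 0.0294, the only call among the 10 genes by that tool, which called 6.75% of genes.

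These values leaned on single libraries. Without SNI desipramine replicate 4, the library of that group with the highest spiny neuron score, 7 of the 10 genes passed (Pde10a, Pde1b, Pde7b, Pde2a, Pde1c and Pde4b lower, Pde4d higher), while 15.6% of all genes did, 7.69% lower and 7.93% higher. Pde10a then differed by -0.61 ± 0.19 (adjusted p = 0.0340) and Pde4d by 0.18 ± 0.04 (0.00722). Pde4d alone passed without SNI saline replicate 2, without SNI tianeptine replicate 4 or without sham tianeptine replicate 1, when 5.57%, 4.11% and 4.2% of genes passed. Without SNI desipramine replicates 2 and 3 the values were -0.26 ± 0.17 for Pde10a, -0.15 ± 0.13 for Pde1b and 0.09 ± 0.04 for Pde4d (adjusted p = 0.575, 0.673 and 0.466). With the spiny neuron score in the model, Pde10a differed by -0.10 ± 0.07, Pde1b by -0.02 ± 0.03, Pde7b by -0.04 ± 0.05 and Pde2a by -0.06 ± 0.03, and Pde4d by 0.10 ± 0.04 (adjusted p = 0.274). Over the 7 genes of the block the median size of the difference was 0.06 with the score and 0.27 without it. The 7 were chosen by their r with this same score in these libraries, so a smaller value with it follows from that choice. The part of cell composition in the difference was not tested.

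On saline alone, SNI minus sham, no gene of all tested passed (0%), though 9.74% had an unadjusted p under 0.05. Pde1a had the smallest p of the 10, at 0.52 ± 0.17 higher in SNI (95% interval 0.16 to 0.87, adjusted p = 0.436), and its mean was 190 ± 46.1 CPM in SNI saline and 133 ± 23.6 CPM in sham saline (SD, n = 5 each). It kept 0.49 ± 0.18 with the score in the model (adjusted p = 0.419). Pde10a differed by -0.57 ± 0.35, with means of 896 ± 300 CPM in SNI saline and 1330 ± 224 CPM in sham saline, and Pde7b by -0.44 ± 0.30. Their 95% intervals, -1.29 to 0.15 and -1.05 to 0.17, include 0. DESeq2 called 1 gene in this comparison (0.00421%) and none of the 10.

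Desipramine was compared with saline within SNI, where the 4 desipramine libraries differed most among themselves. No gene of all tested passed (0%), 17.5% had an unadjusted p under 0.05, and DESeq2 called 2.34% of genes but none of the 10. Pde4d was 0.23 ± 0.09 higher on desipramine (adjusted p = 0.168), with means of 68.7 ± 10.7 CPM on desipramine (n = 4) and 59.9 ± 6.82 CPM on saline (n = 5). Pde1b differed by -0.44 ± 0.31 (adjusted p = 0.471) and Pde2a by -0.39 ± 0.22 (0.368), and Pde10a by -0.22 ± 0.38 with a 95% interval of -0.996 to 0.56. Without SNI desipramine replicate 4, Pde2a (-0.70 ± 0.21), Pde1c (-0.62 ± 0.21), Pde4b (-0.46 ± 0.13) and Pde4d (0.30 ± 0.09) passed, with adjusted p of 0.0287, 0.0455, 0.0244 and 0.0223, while 13.9% of all genes passed, 6.74% lower and 7.2% higher. Without replicate 2, Pde10a differed by 0.11, on the other side of 0, and Pde1b by -0.15. With the spiny neuron score in the model Pde1b differed by 0.01 ± 0.06 and Pde4d by 0.12 ± 0.08, and Pde10a by 0.31 ± 0.13 (adjusted p = 0.464).

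In sham mice, desipramine minus saline gave 0% of genes past the test and 7.63% with an unadjusted p under 0.05, and DESeq2 called 0.0927%, none of the 10. Pde1a was higher on desipramine without passing, with means of 185 ± 40.1 CPM on desipramine (n = 4) and 133 ± 23.6 CPM on saline (n = 5). Its difference was -0.27 ± 0.19 in SNI (adjusted p = 0.467) and 0.48 ± 0.19 in sham (0.551), and the first minus the second was -0.75 ± 0.26 (0.287). Pde4d had 0.23 ± 0.09 in SNI and -0.05 ± 0.09 in sham, and these effects differed by 0.29 ± 0.12 (adjusted p = 0.349). In this test of unequal effects 0% of genes passed in edgeR and 0.421% in DESeq2, none of the 10, and 12.3% had an unadjusted p under 0.05. Averaged over both surgeries, where 0.0295% of genes passed in edgeR and 0.556% in DESeq2 but none of the 10, Pde4a had the smallest p of the 10, at 0.20 ± 0.09 higher on desipramine (adjusted p = 0.387).

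Tianeptine was compared with saline in the same way. Of the 10 genes, 0 had an unadjusted p under 0.05 in SNI, in sham or over both surgeries, where 2.87%, 6.84% and 4.74% of all genes did. The adjusted test passed 0% of genes, and DESeq2 called 1 gene (0.00421%) in each, none of the 10. In SNI the largest value was Pde4b, at 0.19 ± 0.14 higher on tianeptine, with means of 205 ± 19.2 CPM on tianeptine (n = 6) and 178 ± 21.6 CPM on saline (n = 5). Averaged over both surgeries Pde10a differed by -0.06 ± 0.24 and Pde1b by -0.07 ± 0.19, with 95% intervals of -0.56 to 0.43 and -0.46 to 0.33. Those of Pde4a and Pde4d were narrower, -0.13 to 0.21 and -0.06 to 0.17. The effect in SNI minus that in sham had an unadjusted p above 0.05 for all 10 genes, with Pde10a at 0.48 ± 0.48, while 0% of genes passed. Tianeptine minus desipramine over both surgeries, where 0.438% of genes passed in edgeR and 1.78% in DESeq2, gave 0 of the 10 by either tool, with 0.26 ± 0.23 for Pde7b, 0.19 ± 0.11 for Pde4b and -0.16 ± 0.09 for Pde4a.

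**Figure D5:**
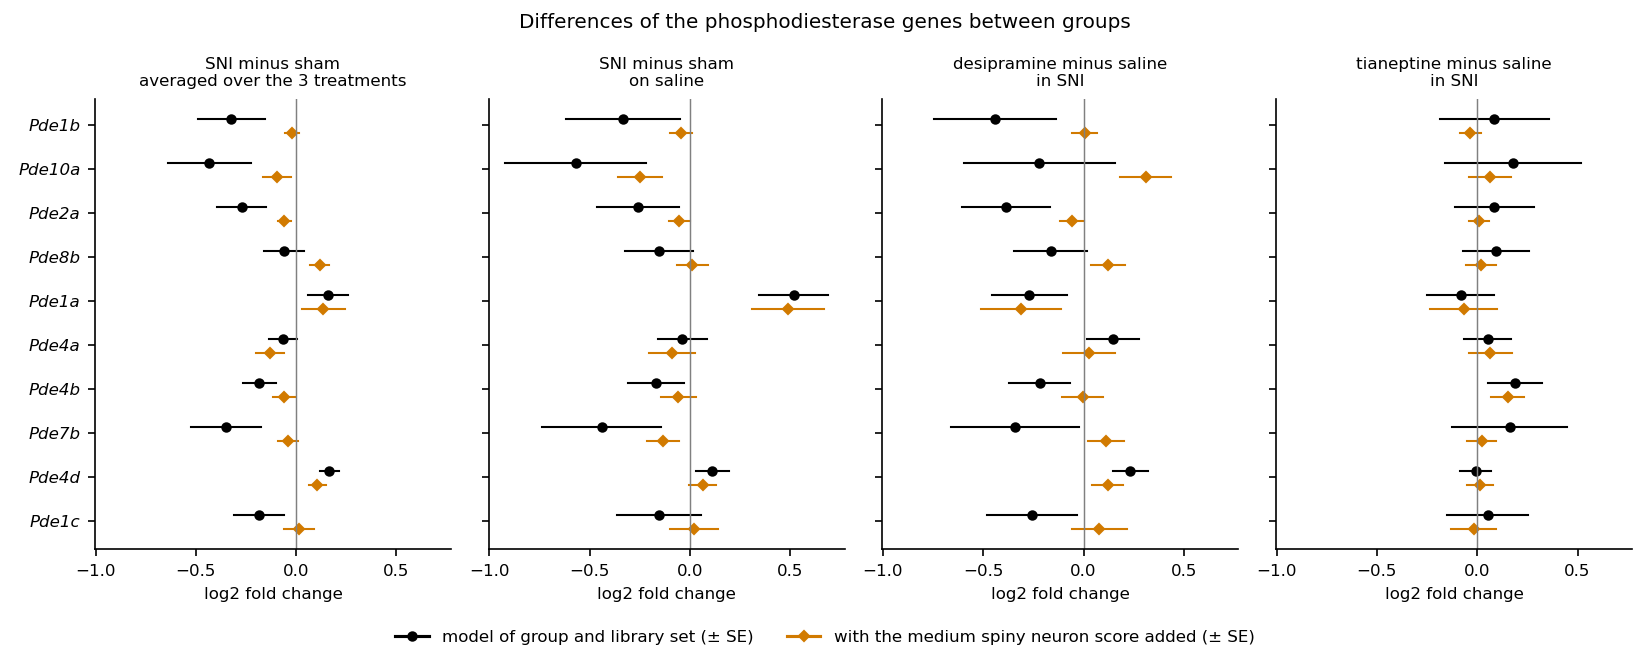
Log2 fold change ± SE of each gene in 4 comparisons, from the model of group and library set (black circles) and with the medium spiny neuron score added (orange diamonds); comparisons in SNI share the SNI saline libraries. Pde10a in SNI minus sham over the 3 treatments sits at -0.43 without the score and -0.10 with it, and Pde1a on saline at 0.52 and 0.49.

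Depth did not limit these genes. The lowest count of any of the 10 in any library was 1008, for Pde7b in SNI desipramine replicate 2, so the spread between animals set the precision. The biological coefficient of variation fitted by edgeR was 38.1% for Pde10a, 32.4% for Pde7b and 30.9% for Pde1b, against 9.19% for Pde4d, 13.7% for Pde4a and a median of 12% over all tested genes.

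The other phosphodiesterase genes, 14 of the family of which 13 were tested, ran from 0.0457 CPM per kb in Pde6c to 17.1 CPM per kb in Pde6d. Pde6d lay above the members Pde7b (13.5), Pde4d (4.97) and Pde1c (3.72), and Pde9a (10.3) and Pde8a (10.03) lay above Pde4d and Pde1c. None of the 13 passed in any comparison. Pde3a, a cAMP enzyme inhibited by cGMP, had 16.6, 20.3, 17.8 and 10.9 CPM in SNI desipramine against 12.9, 8.19, 9.22, 11.2 and 7.75 CPM in SNI saline, a difference of 0.75 ± 0.20 (adjusted p = 0.0947). Pde11a, a dual-specificity enzyme, was 0.57 ± 0.18 higher in SNI than in sham over the treatments (adjusted p = 0.0747). Pde3b was 0.17 ± 0.05 lower on tianeptine than on desipramine over both surgeries (log2 -0.17, adjusted p = 0.132).

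The makers and readers of cyclic nucleotides were examined as 19 cyclase genes and 25 effector genes. In SNI minus sham over the treatments, 1 cyclase was higher and 1 lower past the test, and 2 effectors were higher, while 1.84% of all tested genes passed, 362 higher and 75 lower. The median difference was -0.09 over the cyclases and 0.04 over the effectors. Adcy9, an adenylyl cyclase, fell by 0.22 ± 0.05 on the log2 scale (log2 -0.22, adjusted p = 0.0328) and Adcy7, another, rose by 0.57 ± 0.14 (0.0426). The cyclic nucleotide-gated channel gene Cnga3 rose by 1.34 ± 0.29 (0.0323) and the hyperpolarization-activated channel gene Hcn3 by 0.47 ± 0.11 (0.0365). Cnga3 was near the floor, with a mean of 2.13 ± 1.21 CPM in SNI desipramine (SD, n = 4). In the other groups its means ran from 0.368 CPM in sham saline to 0.821 CPM in SNI saline. These calls were not stable: of 40 alternatives Adcy9 and Cnga3 passed in 17 each, Hcn3 in 15 and Adcy7 in 12, and none of the 4 passed without SNI desipramine replicates 2 and 3 (adjusted p = 0.386, 0.386, 0.408 and 0.421). In the other 10 comparisons 0 genes of either list passed. In desipramine minus saline within SNI, 7 of 19 cyclases and 8 of 25 effectors had an unadjusted p under 0.05, against 17.5% of all tested genes. Among them were Adcy8 at 0.95 ± 0.31 (adjusted p = 0.124) and Hcn4 at 0.86 ± 0.27 (0.121), with the septal score of SNI desipramine replicates 2 and 3 at 1.84 and 1.68. The part of neighbouring tissue in these values was not tested.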

How the data were processed

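RNA was measured in 30 libraries, and groups were read from the labels. Per the submitters' processing notes, the authors used Trim Galore, HISAT2, SAMtools and featureCounts on build mm10; their versions, the annotation release and the strand setting are not given in these sources. The deposited counts are whole reads per gene. The deposited FPKM divides them by library total and whole gene span, introns included, so it was used only as an alternative order. Exon lengths came from GENCODE M21; of 55401 IDs 54349 matched exactly, 792 without version and 260 not at all (0.051% of counts).

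CPM was scaled by TMM. edgeR 4.0.16 (R 4.3.3) fitted a robust quasi-likelihood model with a term per group and 1 for library set to all libraries and 23736 genes kept by filterByExpr (99.925% of counts), with 23 residual degrees of freedom. The 11 comparisons were 2-sided contrasts, with Benjamini-Hochberg adjustment over all genes. DESeq2 1.42.0, limma-voom 3.58.1, RLE scaling, no filter and other alternatives are given last. The 10 genes, the gene and marker lists and the comparisons were chosen with earlier results of these data known. All 10 genes are named; in other lists the genes that passed and up to 3 of smallest p. Library set is read from library numbers, which in set 1 also run in blocks by group, so a step that followed them cannot be told apart from group. The permutation test of correlations was added to the plan. The test was checked on simulated counts. No pair of libraries within a group was a near copy (smallest chi-square per degree of freedom 7.51). Pairs across groups were not checked.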

Additional observations from a re-analysis of the deposited data

Results flagged for a closer look

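In sham tianeptine, replicate 5 lay far from the other 5 libraries for 2 genes. Pde4a was 198.1 CPM there, against 126.6 to 151.7 CPM in the others. Pde4d was 72.5 CPM, against 54.5 to 61.17 CPM. That library is in library set 2 and had a cortical excitatory neuron score of 2.07, the highest of its group. The gap to the nearest library passed Dixon's limit in 2 of 60 gene and group combinations examined, and chance gives about 1 in 20.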

How the results depend on the processing

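In 9 of the 11 comparisons the number of the 10 genes passing was 0 in the main test and in each alternative that was run: RLE scaling, DESeq2, limma-voom, no filter, no library set term, library set 1 alone, the replicate block, the spiny neuron score, without SNI desipramine replicates 2 and 3, without sham saline replicates 2 and 3, only the groups compared, and each library left out in turn. In SNI minus sham over the treatments DESeq2 gave 1 (Pde4d), and leaving out 1 library gave 0 to 7. In desipramine minus saline within SNI leaving out 1 library gave 0 to 4. The cause was not tested. Of 3000 fold changes under alternatives, 2982 kept their call, 15 came to pass and 3 reversed. A change of sign counted as a reversal only where the value or its alternative had an unadjusted p under 0.05. The 3 came with the spiny neuron score in the model: Pde10a at 0.31 in desipramine minus saline within SNI, against -0.22 without the score, Pde10a at -0.18 in tianeptine minus desipramine, against 0.12, and Pde8b at 0.12 in SNI minus sham over the treatments, against -0.06. None of the 3 passed (adjusted p = 0.464, 0.416 and 0.272), and the cause was not tested. Ordering genes by the deposited FPKM, which divides by introns too, left 1 of the 10, Pde1b, in its place. The share of Pde10a in the family signal was also taken with the longest transcript as length, an alternative chosen after seeing the data, and moved to 18.3% from 16.8%, less than the spread between libraries.

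Replicate numbers showed no sign of pairing the animals: of 67 same-numbered pairs, 17 had deviations correlated over 0.1, with a median r of 0.0013. Their r ran from -0.715 to 0.502, and the median for pairs of different number was 0.0143. With so wide a range the check cannot exclude a pairing. With the replicate block 0 of the 10 genes passed in each comparison, and Pde4d in SNI minus sham had an adjusted p of 0.0793. Depth was ample, so the spread between libraries and the 4 desipramine libraries a surgery limit what can be seen.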
